A study of Mus musculus with 18 samples.

Results

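Kdr, Etv2, Tal1 and Lmo2 are 4 genes of the programme from which the first blood and endothelial cells of the mouse embryo arise. They were taken by name from single-cell count tables of gastrulating embryos that name 22997 nuclear genes, and all 4 were among the genes found at both stages. Every C57BL/6 embryo was wild type. Libraries of embryonic day (E) 6.75 held cells picked by hand and processed with CEL-Seq2, from single embryos whose extraembryonic part had been cut off. Libraries of E7.5 held cells sorted by flow cytometry and processed with mCEL-Seq2, from 1 or 2 pooled litters trimmed under the chorion, which keeps extraembryonic mesoderm. Stage, collection and protocol version changed together and cannot be told apart. Each library was made from 96 cells, and cells with at least 2000 nuclear transcripts were kept, which left 543 cells in 6 libraries at E6.75 and 429 cells in 11 of 12 libraries at E7.5. The design text named 576 cells at E6.75, the number of barcodes in use, and 1172 at E7.5, where 1152 barcodes were in use. E7.5 replicate 5 held 0 kept cells and was left out. Kept cells summed to between 2921862 and 5493791 transcripts per E6.75 library and between 488908 and 2618539 per E7.5 library. The embryo that gave each cell was not known, so p-values measure the spread between libraries, which may be technical.

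Kdr encodes VEGFR2, the receptor tyrosine kinase through which vascular endothelial growth factor A acts, and marks mesoderm that can give rise to endothelium, blood, heart and muscle. Etv2 is an ETS-family transcription factor that is switched on briefly in such mesoderm and is required for both blood and endothelium. Tal1, a basic helix-loop-helix factor, and Lmo2, a LIM-domain protein that binds no DNA itself, work in 1 complex with GATA factors, E proteins and Ldb1, and both are required for blood formation. In the mouse these cells leave the primitive streak as mesoderm and gather first in the yolk sac.

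The genes lie on 4 chromosomes, in GENCODE M21 coordinates on GRCm38. Kdr is at chr5:75932827-75978458 on the minus strand, Etv2 at chr7:30633616-30635852 on the minus strand, Tal1 at chr4:115056426-115071755 on the plus strand and Lmo2 at chr2:103957986-103981878 on the plus strand. Lmo2 overlaps 4931422A03Rik, which runs from 103966943 to 104028361 on the opposite strand. Whether counting used strand is not given in the sources used here, so reads of these 2 genes may not be told apart. Each count is of whole gene rows, with no division into exons or transcripts.

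The 250 bases upstream of the start sites are shown because all 4 genes belong to 1 programme, in which GATA, ETS and helix-loop-helix factors bind DNA at known short motifs. RefSeq promoter sequences on GRCm38.p6 were matched for Kdr, Etv2 and Tal1. They were searched on both strands for GATAA, which GATA factors bind, CANNTG, the E-box bound by helix-loop-helix factors such as Tal1, and CGGAA, a core of ETS sites. Capitals mark every match, and no matches overlapped. The Kdr sequence is chr5:75978456-75978705, Etv2 is chr7:30635853-30636102 and the first Tal1 start is chr4:115056176-115056425, each printed 5′ to 3′ on the gene's own strand.
Kdr: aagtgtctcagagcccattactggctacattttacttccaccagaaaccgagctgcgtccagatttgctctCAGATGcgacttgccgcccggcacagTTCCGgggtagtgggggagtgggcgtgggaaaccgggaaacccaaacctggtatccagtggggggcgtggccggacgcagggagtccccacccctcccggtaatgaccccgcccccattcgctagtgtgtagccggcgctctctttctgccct
Etv2: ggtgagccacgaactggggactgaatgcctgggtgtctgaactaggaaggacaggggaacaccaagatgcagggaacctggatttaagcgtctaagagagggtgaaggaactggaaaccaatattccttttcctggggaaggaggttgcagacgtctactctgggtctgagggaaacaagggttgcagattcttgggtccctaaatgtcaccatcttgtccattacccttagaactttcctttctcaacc
Tal1: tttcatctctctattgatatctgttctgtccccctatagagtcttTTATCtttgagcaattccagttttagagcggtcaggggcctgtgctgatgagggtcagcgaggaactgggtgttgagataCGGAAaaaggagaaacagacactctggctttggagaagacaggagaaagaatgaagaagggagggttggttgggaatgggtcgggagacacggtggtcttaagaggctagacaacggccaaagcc
The Kdr sequence held 1 E-box, starting 179 bases before the start site, and 1 ETS core on the opposite strand at 153 bases before it. The Tal1 sequence held 1 GATA motif on the opposite strand 205 bases before the start and 1 ETS core 125 bases before it. The Etv2 sequence and that of the second Tal1 start, chr4:115057561-115057810, held 0 matches. Among 32851 promoters of this length, 66.2% held an E-box, 25.2% an ETS core and 22.6% a GATA motif, so each match is of a common kind. A match is a description of these letters and not a measured binding site.

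Levels were first compared between stages on transcripts summed over the kept cells of each library, as transcripts of the gene per 1000000 nuclear transcripts (CPM). Kdr, Lmo2 and Tal1 were higher at E7.5, and Etv2 did not pass the test. For Kdr the E6.75 libraries had 0, 0.317 and 8.54 CPM as lowest, median and highest, and the E7.5 libraries 7.62, 53 and 120 CPM. At E6.75, replicates 1_10 and 2_9 held 0 Kdr transcripts, where 3 transcripts would have been 0.993 and 0.827 CPM. Only replicates 2_13 and 2_14 exceeded 1 CPM, at 6.38 and 8.54. They were also the deepest of the stage, with medians of 54690 and 53970 transcripts per kept cell, against 22330 to 35380 in the others. Whether depth had a part in this was not tested. All but the lowest E7.5 library, replicate 12, lay above every E6.75 library. The means were 47.8 ± 35.3 CPM (SD, n = 11) and 2.59 ± 3.84 CPM (SD, n = 6), a log2 fold change of 3.89 (SE 0.64, adjusted p = 6.48e-05, edgeR quasi-likelihood test with Benjamini-Hochberg adjustment).

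Lmo2 was found in every library of both stages. Its lowest, median and highest levels were 1.10, 2.67 and 4.66 CPM at E6.75 and 2.54, 18.9 and 94.1 CPM at E7.5. Replicate 12 was the single E7.5 library inside the E6.75 range. The means of 32.3 ± 28.5 CPM (SD, n = 11) and 2.69 ± 1.30 CPM (SD, n = 6) gave a log2 fold change of 3.54 (SE 0.548, adjusted p = 3.416e-05, edgeR).

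Tal1 was spread most unevenly over the E7.5 libraries. At E6.75 its lowest, median and highest levels were 0.729, 2.19 and 5.82 CPM. At E7.5 they were 0, 8.84 and 86.4 CPM, with replicates 9, 10 and 12 at 0 transcripts, where 3 transcripts would have been 6.14, 4.45 and 3.81 CPM. Replicate 2 was highest and the groups overlapped. The means of 20.1 ± 27.0 CPM (SD, n = 11) and 2.57 ± 1.74 CPM (SD, n = 6) differed by 3.01 on the log2 scale (SE 0.724, adjusted p = 0.00242, edgeR). Without E7.5 replicate 1 or 2, Tal1 was too low to enter the test.

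Etv2 was already present at E6.75. Its lowest, median and highest levels were 3.08, 6.37 and 45.8 CPM there and 1.36, 10.2 and 50.5 CPM at E7.5. The E6.75 maximum was replicate 2_14 alone, the next library being 2_13 at 10.4 CPM. The means of 20.3 ± 17.4 CPM (SD, n = 11) and 12.9 ± 16.3 CPM (SD, n = 6) gave a log2 fold change of 0.68 (SE 0.528, adjusted p = 0.321, edgeR). Of the 236 Etv2 transcripts in replicate 2_14, 178 came from a single cell, 75.4% of them. With that cell left out the log2 fold change was 1.53, a description only, since the cell was chosen for its Etv2 count and left out on 1 side of the comparison. At E7.5 the cells with the most Etv2, with 49 of 94 transcripts in replicate 1, 63 of 132 in replicate 2 and 29 of 55 in replicate 4, were kept. Without the whole of replicate 2_14 the log2 fold change was 1.70 (adjusted p = 0.0095, edgeR). That value is a description too, since the library is named here for its high Etv2 and was left out on 1 side.

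Read against all genes, 38.8% of 9998 genes tested passed between the stages, 20% of them higher at E7.5 and 18.8% lower, so a pass for 3 of the 4 genes was not rare among genes of these libraries. None of the 4 had library ranges that failed to overlap, against 8.24% of genes tested. In bulk sums, more cells with a gene and more RNA of it per cell cannot be told apart, and the cells were therefore examined next.

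**Figure D1:**
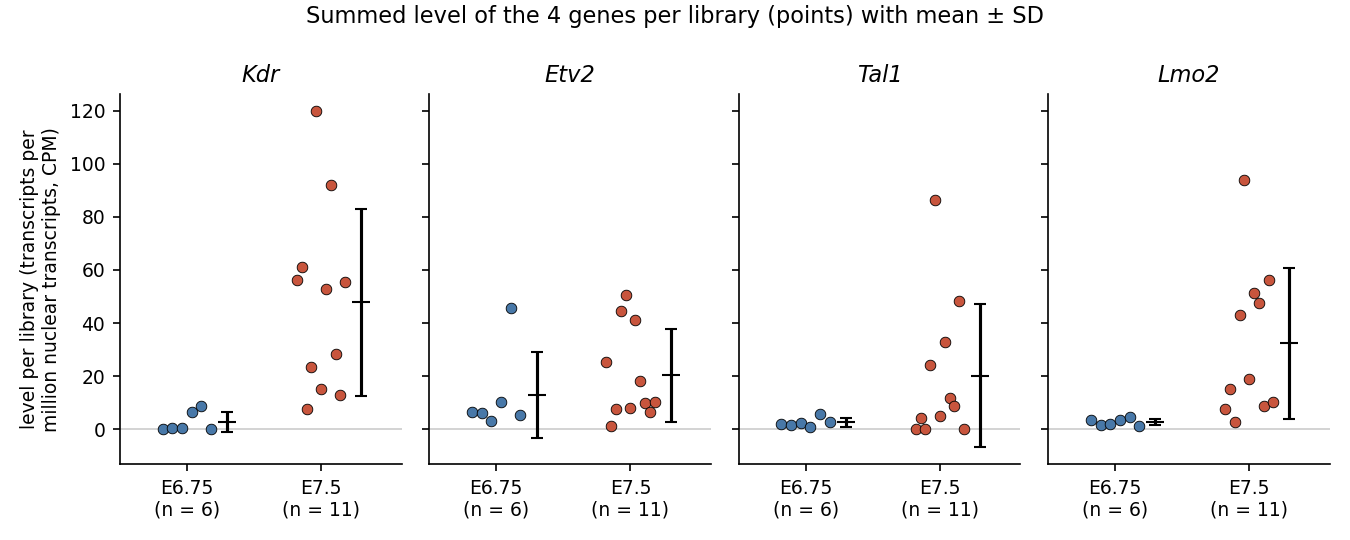
Level of each gene per library (CPM, linear axis) at E6.75 (blue, n = 6) and E7.5 (red, n = 11), with the mean ± SD beside the points. Kdr and Lmo2 lie near 0 in the E6.75 libraries and spread up to 120 and 94.1 CPM at E7.5, while for Etv2 1 E6.75 library at 45.8 CPM stands among the highest E7.5 libraries.

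Kdr was found in 16 of 543 cells (2.95%) at E6.75 and in 101 of 429 (23.5%) at E7.5, and Lmo2 in 54 (9.94%) and 114 (26.6%). Tal1 was found in 30 (5.52%) and 32 (7.46%) cells and Etv2 in 128 (23.6%) and 90 (21%). For Tal1 the number of transcripts rose from 63 to 388 over nearly the same number of positive cells, before any account of depth. Of these cells, 7 held 2 or more at E6.75 and 19 at E7.5, and 1 E6.75 cell held 26 of the 63 transcripts. Unthinned counts do not tell more positive cells from more transcripts per positive cell. Etv2 gave 363 transcripts at E6.75 and 361 at E7.5. Depth differed between the stages, so every cell was also thinned to 2000 transcripts and each library's share of positive cells was compared by an exact two-sided permutation test over 12376 regroupings of the libraries.

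After thinning, Kdr was found in 0.524% of cells at E6.75 and 5.03% at E7.5 on average over libraries (permutation p = 0.0249, adjusted p = 0.251), against 2.83% and 24.8% unthinned (permutation adjusted p = 0.0156). Lmo2 was found in 1.07% and 5.23% (permutation p = 0.0431, adjusted p = 0.328). Tal1 was found in 0% and 2.90% (permutation p = 0.065, adjusted p = 0.406) and Etv2 in 2.28% and 2.21% (permutation p = 0.960, adjusted p = 0.994). None of the 4 passed after thinning, where 2.59% of the 10507 genes tested did and 0.647% were called higher at E7.5. A thinned cell is counted only if 1 of its 2000 transcripts is of the gene, so these shares are near what the depth can resolve.

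Cells of each stage were then clustered without the 4 genes and clusters were named from marker lists in which none of the 4 stands. What follows describes these classes and carries no test. At E7.5 the blood and endothelial progenitor-like class had 16 cells from 7 libraries, 8 of them from replicate 2, and its leading genes were Gata2, Runx1, Gata1, Cited4, Rnd2, Hapln1, Gadd45g, Cbfa2t3, Hbb-bh1 and Phlda1. These include blood regulators and an embryonic globin. A finer clustering gave the same 16 cells.

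Tal1 was found in 16 of these 16 cells (exact Clopper-Pearson 95% interval from 79.4%) at a pooled level of 559 CPM, and the class held 86.9% of all Tal1 transcripts of the stage. Lmo2 was likewise found in all 16, at 526 CPM, with 57.1% of its transcripts. Kdr was found in 14 of 16 (87.5%, exact Clopper-Pearson interval 61.7% to 98.5%) at 478 CPM, with 40.1% of its transcripts, and Etv2 in 14 of 16 at 189 CPM, with 31.6%. Intervals cover counting error only. Libraries differed widely: over the 3 libraries with at least 2 of these cells, Kdr was at 537.5 ± 425.3 CPM and Etv2 at 329 ± 349.7 CPM (SD). Tal1 was at 521.4 ± 156.1 CPM and Lmo2 at 566.9 ± 239.1 CPM in the same 3.

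Outside that class the 4 genes parted. Kdr was next highest in extraembryonic and lateral mesoderm-like cells, found in 27 of 53 (50.9%) at 102 CPM, and then in paraxial mesoderm-like cells, found in 31 of 103 (30.1%) at 60.5 CPM. At a finer clustering Kdr was at 20.3 CPM in the paraxial mesoderm-like class, with 6.95% of its transcripts in place of 28%, and at 147 CPM in the extraembryonic and lateral one, so its level outside the blood class depended on where these classes were divided. Etv2 had its largest share of transcripts, 49.0%, in the extraembryonic and lateral mesoderm-like class, where 19 of 53 cells (35.8%) held it at 96.4 CPM. It was found in 20 of 103 paraxial mesoderm-like cells at 6.93 CPM. The Etv2 level in the extraembryonic class leaned on few cells, since its largest cell had 63 of the 177 transcripts.

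Lmo2 followed another order. After the blood class it was highest in the node and notochord-like cells, with 6 of 14 (42.9%) at 42.7 CPM, in the primitive streak-like cells, with 30 of 72 (41.7%) at 34.2 CPM, and in the paraxial mesoderm-like cells, with 34 of 103 (33%) at 28 CPM. Extraembryonic and lateral mesoderm-like cells had 11 of 53 (20.8%) at 10.3 CPM. Kdr stood at 9.12 CPM in the streak-like class and in 0 of 14 cells of the node-like class, where a limit of 3 cells is a share of 21.4% of cells with a transcript, not of cells expressing the gene.

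The same contrast appeared between the 2 clusters that made up the paraxial mesoderm-like class. The first, led by Foxc2, Alx1, Myl7 and Twist1 (55 cells, 11 libraries), had Kdr in 41.8% of cells at 88.5 CPM and Lmo2 in 16.4% at 8.71 CPM. The second, led by Aldh1a2, Tbx6, Dll1 and Hoxb1 (48 cells, 6 libraries), had Kdr in 16.7% at 14.4 CPM and Lmo2 in 52.1% at 59.9 CPM. The median depths were 39910 and 23850 transcripts, so the cluster with more Lmo2 was the shallower. This contrast holds for the coarser clustering only. At the finer one the whole paraxial mesoderm-like class (66 cells) had Kdr at 20.3 CPM and Lmo2 at 27.6 CPM, and its clusters were not compared. Lmo2 was also found in 52% of the 50 streak-like cells led by Nkx1-2, Cdx1 and T and in 18.2% of the 22 led by Mixl1, Mesp1 and Eomes.

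Tal1 outside the blood class was rare. Extraembryonic and lateral mesoderm-like cells held 35 Tal1 transcripts, of which 34 were in 1 cell. Epiblast-like cells had it in 7 of 122 (5.74%) at 2.63 CPM, against 559 CPM in the blood class. Kdr, Etv2 and Lmo2 were found in 11, 16 and 9 of the epiblast-like cells, and the anterior and neural ectoderm-like cells held 4, 6 and 5 among 28.

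**Figure D2:**
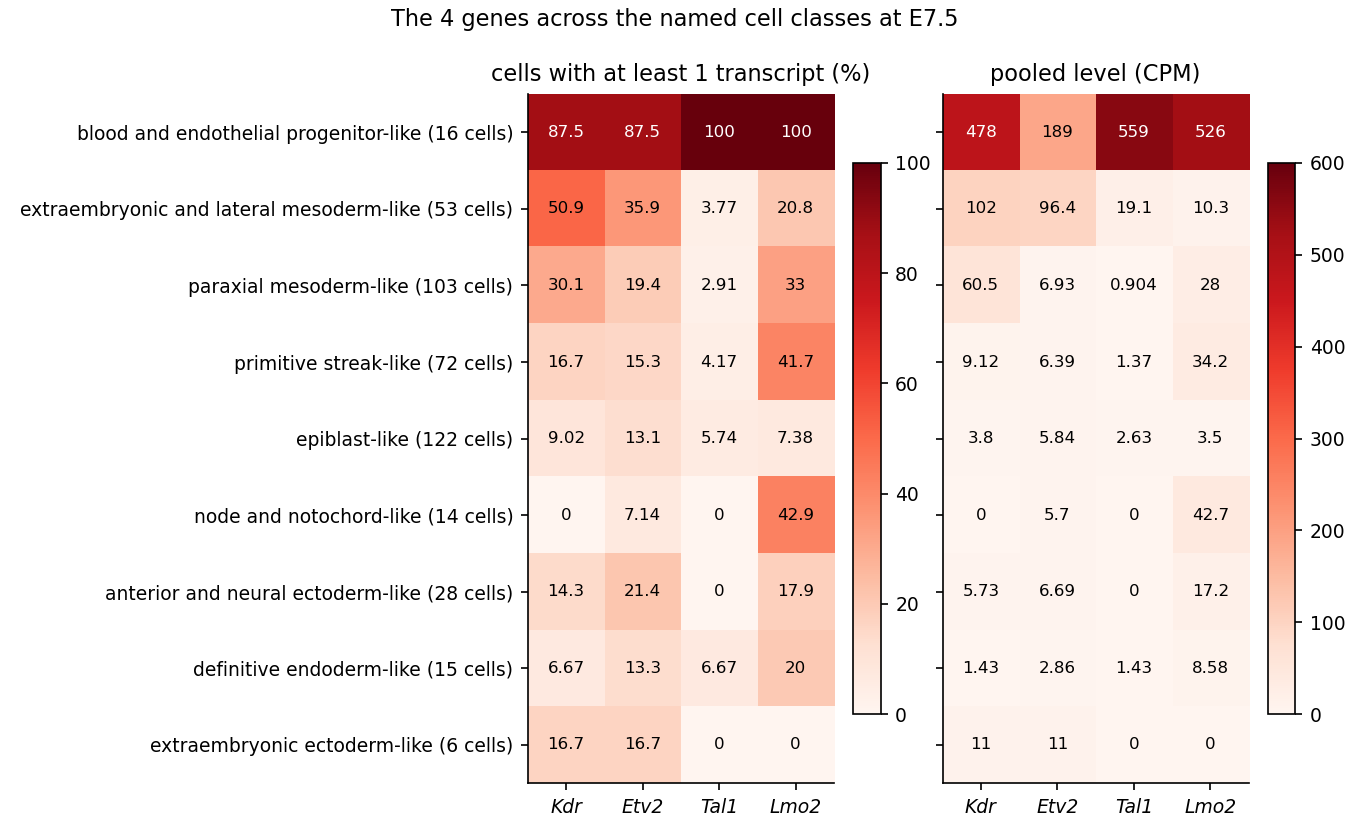
Share of cells with at least 1 transcript (left, %) and pooled level (right, CPM) of each gene in the E7.5 classes. Tal1 fills 1 row, the blood and endothelial progenitor-like cells at 100% and 559 CPM, Kdr and Etv2 extend into the extraembryonic and lateral mesoderm-like row at 102 and 96.4 CPM, and Lmo2 extends instead into the node, streak and paraxial rows at 42.7, 34.2 and 28 CPM.

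At E6.75 the same genes sat in earlier classes. The streak-like class (86 cells) held Kdr in 12 cells with 91.4% of its transcripts, Etv2 in 36 (41.9%), Tal1 in 4 and Lmo2 in 18. Kdr was not limited to it: 3 of 14 extraembryonic ectoderm-like cells (21.43%) held Kdr, at 11.6 CPM. In the streak-like class the share was 13.95% and the level 15.02 CPM. The exact Clopper-Pearson intervals of these shares, 4.658% to 50.8% and 7.423% to 23.11%, overlapped. The epiblast-like class (251 cells) held Kdr in 1 cell, Etv2 in 57, Tal1 in 25 and Lmo2 in 23. Clusters that took no name (152 cells) held Kdr in 0, Etv2 in 33, Tal1 in 1 and Lmo2 in 9. The place of Tal1 depended on the clustering: 25 of its 30 positive cells were epiblast-like here, and at a finer clustering 16 were, with 10 in clusters that took no name.

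Combinations of the 4 genes in single cells were counted next. At E7.5, 215 of 429 cells held none of them, 61 held Lmo2 alone, 43 Kdr alone, 28 Etv2 alone and 7 Tal1 alone. All 4 were found together in 15 cells from 6 libraries, of which 13 were blood and endothelial progenitor-like and the other 2 extraembryonic and lateral mesoderm-like. Kdr with Etv2 was found in 17 cells, and Kdr with Etv2 and Lmo2 in 14. At E6.75 all 4 were found in 1 cell.

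Cells with Lmo2 alone and cells with Kdr alone differed in their levels of T and Hand1, as sums over their cells. The 61 cells with Lmo2 alone had T, the brachyury factor of the streak and tail-forming mesoderm, at 1200 CPM and Hand1, a factor of extraembryonic and lateral mesoderm, at 46.3 CPM. Of these, 22 were streak-like and 20 paraxial mesoderm-like. The 43 cells with Kdr alone had T at 179 CPM and Hand1 at 278 CPM. Of these, 15 were paraxial mesoderm-like and 12 extraembryonic and lateral mesoderm-like. Mesp1 was at 119 CPM in them and at 82.1 CPM in the cells with Lmo2 alone. The 215 cells with none of the 4 genes had T at 379 CPM and Hand1 at 127 CPM. The 14 cells with Kdr, Etv2 and Lmo2 had Hand1 at 464 CPM and Gata2 at 23.8 CPM.

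The 15 cells with all 4 genes had Gata2 at 335 CPM, Gata1 at 199 CPM, Runx1 at 195 CPM and Fli1 at 68.4 CPM. Gata2, Gata1 and Runx1 are blood regulators and Fli1 is an ETS factor of both lineages. Of genes of formed vessels, Cdh5, the endothelial cadherin, was at 10 CPM in them and Pecam1 at 6.67 CPM. In the cells with none of the 4, Cdh5 was at 0 CPM and Pecam1 at 0.826 CPM. The globin Hbb-bh1 was at 152 CPM and Hba-x at 1.67 CPM in the cells with all 4. Pou5f1, the epiblast factor, was at 20 CPM there and at 313 CPM in the cells with none of the 4.

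The Tal1 counts fell into separate ranges. At E7.5, 17 cells held between 7 and 54 Tal1 transcripts, and the other 15 positive cells held 1 or 2. The 17 were the 16 blood and endothelial progenitor-like cells and 1 extraembryonic and lateral mesoderm-like cell. The 13 cells with at least 10 Tal1 transcripts came from 5 libraries, held 87.1% of its transcripts, and all had Kdr and Lmo2, while 12 had Etv2.

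Kdr, Etv2 and Lmo2 had no such gap. At least 10 Kdr transcripts were held by 20 cells, of which 9 were blood and endothelial progenitor-like, 7 paraxial mesoderm-like and 4 extraembryonic and lateral mesoderm-like. The name of the 7 depended on the clustering: at the finer one no paraxial mesoderm-like cell held more than 8 Kdr transcripts. At least 10 Lmo2 transcripts were held by 17 cells, and 13 of these had Tal1. At least 10 Etv2 transcripts were held by 7 cells from 3 libraries, with 59.3% of the Etv2 transcripts of the stage, and all 7 had Kdr and Lmo2.

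Single cells, chosen after their values were seen, show how the counts combined. The cell with the most Etv2, in replicate 2, held 60 Kdr, 63 Etv2, 0 Tal1 and 1 Lmo2 transcripts with 23 of Hand1 and 11 of Foxf1, and lay in the extraembryonic and lateral mesoderm-like class. A cell of replicate 1 in that class held 14 Kdr, 49 Etv2, 34 Tal1 and 5 Lmo2 with 34 Hand1 and 11 Gata2. A cell of replicate 4, in the blood class, held 51 Kdr, 29 Etv2, 19 Tal1 and 22 Lmo2 with 1 Gata2 and 0 Gata1.

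Counts varied within the blood class. Another cell of replicate 4 held 13 Kdr, 20 Etv2, 21 Tal1 and 34 Lmo2 with 4 Gata1 and 2 Hbb-bh1, and a cell of replicate 6 held 18 Kdr, 8 Etv2, 9 Tal1 and 25 Lmo2 with 7 Gata1. A cell of replicate 2 held 9 Kdr, 1 Etv2, 54 Tal1 and 46 Lmo2 with 39 Gata2, 26 Gata1 and 62 Hbb-bh1. A cell of replicate 8 held 3 Kdr, 2 Etv2, 28 Tal1 and 30 Lmo2 with 48 Gata1 and 24 Hbb-bh1. The last 2 were the cells with the most Hbb-bh1 among those with at least 10 transcripts of a regulator. Lmo2 was also high without Kdr and Tal1: a streak-like cell of replicate 1 held 12 Lmo2 and 164 T with 0 Kdr, 1 Etv2 and 0 Tal1.

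At E6.75, 3 cells from 2 libraries held at least 10 Kdr transcripts, 2 cells from 2 libraries at least 10 Etv2 and 1 cell at least 10 Tal1. The last was the streak-like cell of replicate 2_14 named above, which held 28 Kdr, 178 Etv2, 26 Tal1 and 5 Lmo2, with 40 Hand1, 9 Gata2, 15 T and 8 Mesp1, among 68001 transcripts. No E7.5 cell held more than 63 Etv2 transcripts. The E6.75 cell alone gave 86.7% of that library's 30 Tal1 transcripts. With it left out of the stage comparison the log2 fold changes of Kdr, Tal1 and Lmo2 were 4.45, 3.68 and 3.63, against 3.89, 3.01 and 3.54 with it.

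**Figure D3:**
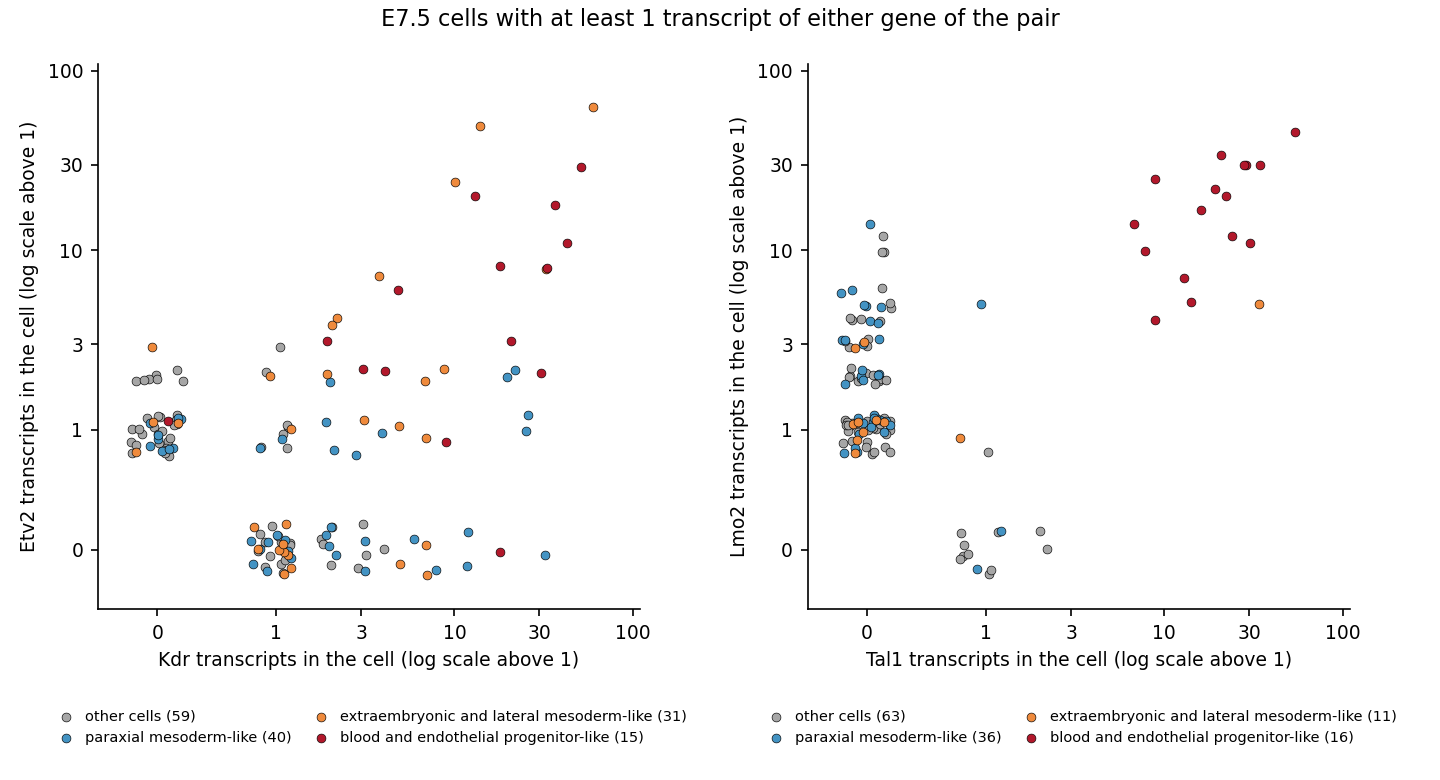
Transcripts per E7.5 cell of Kdr against Etv2 (left) and Tal1 against Lmo2 (right), for cells with either gene of the pair, on axes that are logarithmic above 1 with small random shifts, coloured by class. On the right, 17 cells with 7 to 54 Tal1 transcripts stand apart from the cells with 0 to 2, while on the left the cells with at least 10 Etv2 transcripts all hold at least 10 Kdr transcripts.

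Whether the genes were found in the same cells more often than independence within a library gives was tested by an exact sign-flip permutation test over libraries, adjusted over the 12 pairs of gene and stage. Etv2 and Lmo2 shared 44 E7.5 cells where 27.1 were expected, with a mean log2 ratio of 0.542 (SD 0.481, n = 11, above 0 in 8 of 11 libraries, exact p = 0.00781, adjusted p = 0.0938). Etv2 and Tal1 shared 19 where 7.16 were expected (mean log2 ratio 0.886, SD 0.598, above 0 in 7 of 8 libraries, exact p = 0.0156, adjusted p = 0.0938). Kdr and Tal1 shared 20 where 8.04 were expected (0.696, SD 0.747, 6 of 8 libraries, exact p = 0.0391, adjusted p = 0.156).

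Kdr and Etv2 shared 46 cells where 24.2 were expected, but the mean log2 ratio of 0.449 had an SD of 0.806 over 11 libraries (exact p = 0.0967, adjusted p = 0.232). Replicate 2 gave 17 of the shared cells, where 7.78 were expected. Tal1 and Lmo2 shared 20 where 10.7 were expected (0.562, SD 0.634, n = 8, exact p = 0.0625, adjusted p = 0.188). Kdr and Lmo2 shared 37 where 29.6 were expected, with a mean log2 ratio of 0.0084 (SD 0.707, n = 11, 5 of 11 libraries above 0, exact p = 0.968, adjusted p = 1). None of the 6 pairs passed after adjustment. The smallest p these designs allow is 0.000977 with 11 libraries and 0.00781 with 8.

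Much of the shared detection lay in the blood and endothelial progenitor-like class. With its 16 cells left out, Tal1 and Lmo2 shared 4 cells where 4.06 were expected, Kdr and Lmo2 23 where 21.9 were expected, and Kdr and Tal1 6 where 3.09 were expected. Kdr and Etv2 still shared 33 where 18.4 were expected and Etv2 and Lmo2 30 where 19.9 were expected, with adjusted p = 0.75 by the exact test. At E6.75 Etv2 and Lmo2 shared 21 cells where 14.9 were expected (mean log2 ratio 0.153), Kdr and Lmo2 4 where 2.40 were expected (0.432), and no pair passed (exact test, adjusted p of at least 0.833). Deep cells hold more genes of any kind, so the pairs were also counted after thinning every E7.5 cell to 2000 transcripts. Tal1 and Lmo2 then shared 8 cells where 1.37 were expected, Kdr and Tal1 7 where 1.08 were expected, Kdr and Etv2 5 where 0.787 were expected, and Kdr and Lmo2 4 where 1.61 were expected. With 4 to 6 libraries per pair the smallest p allowed was 0.0312 to 0.125, and none passed (exact test, adjusted p of 0.25 to 0.5).

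The next comparison asked which genes went with Kdr: in each of the 11 E7.5 libraries, transcripts were summed over cells with at least 1 Kdr transcript (101 cells) and over cells with none (328 cells), and compared with the library as a block. Etv2 was found in 46 of 101 cells with Kdr (45.5%) and 44 of 328 without (13.4%), Tal1 in 20 (19.8%) and 12 (3.66%), and Lmo2 in 37 (36.6%) and 77 (23.5%). Cells with Kdr were deeper in 10 of 11 libraries, by 1.39 times in the median library and by 0.933 to 7.66 times over all. Deeper cells pass any gate of 1 transcript more easily, and the part of depth in these results was not tested beyond the thinned values given below.

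Etv2 was at 58.3 ± 88.2 CPM in cells with Kdr and 7.62 ± 6.24 CPM in cells without (SD, n = 11). The widest gaps were in replicate 4, with 291 against 3.43 CPM, replicate 1, with 116 against 7.24 CPM, and replicate 2, with 115 against 3.95 CPM. Replicates 3, 9, 11 and 12 went the other way, with 0 to 6.22 CPM in cells with Kdr and 1.73 to 18.1 CPM in cells without, so the level was higher with Kdr in 7 of 11 libraries. Etv2, Tal1 and Lmo2 failed the ordinary filter on low counts and entered only with a filter of at least 100 transcripts, added after seeing the data. Etv2 and Tal1 met it only through the cells with Kdr, which held 308 of 361 Etv2 and 362 of 388 Tal1 transcripts. Lmo2 met it on either side of the gate, with 362 of its 555 transcripts in cells with Kdr and 193 in cells without. The fitted values of all 3 are a description. For Etv2 the log2 fold change was 3.21 (SE 0.514, adjusted p = 0.000312, edgeR).

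Tal1 was at 62.3 ± 86.3 CPM in cells with Kdr and 2.13 ± 2.36 CPM in cells without (SD, n = 11). Replicates 4, 2 and 8 had 229, 205 and 132 CPM with Kdr against 3.43, 1.32 and 0 CPM without. Replicates 9, 10 and 12 held 0 in both, and replicates 3 and 11 held 0 with Kdr against 6.05 and 5.18 CPM without. The level was higher with Kdr in 6 of 11 libraries, and 93.3% of Tal1 transcripts were in cells with Kdr. The fitted log2 fold change, a description since Tal1 met the filter only through the cells with Kdr, was 4.45 (SE 0.545, adjusted p = 3.182e-05, edgeR).

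Lmo2 was at 75.3 ± 104 CPM in cells with Kdr and 17.3 ± 13.4 CPM in cells without (SD, n = 11). Replicates 4, 2, 8 and 6 had 326, 180, 132 and 113 CPM with Kdr against 10.3, 32.2, 12.7 and 18.4 CPM without. Replicates 1, 3, 9, 11 and 12 were lower with Kdr, for instance 37.2 against 46.4 CPM in replicate 1. The log2 fold change was 1.75 (SE 0.448, adjusted p = 0.0236, edgeR). With replicate 2, 4, 6 or 8 left out it no longer passed, at adjusted p = 0.142, 0.114, 0.0777 and 0.075 (edgeR). Of the 9257 genes in that fit, 4.29% were called and 1.78% were called higher.

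An exact sign-flip permutation test that gives each of the 11 libraries the same weight, on log2(CPM + 5), gave mean differences of 1.28 for Etv2 (SD 2.21, exact p = 0.0811, adjusted p = 0.620), 1.83 for Tal1 (SD 2.38, exact p = 0.0313, adjusted p = 0.447) and 0.77 for Lmo2 (SD 2.18, exact p = 0.275, adjusted p = 0.891). This test called 0 of 20640 genes, and with a smallest p of 0.000977 from 11 libraries a single gene could hardly pass over so many: Kdr, which defines the gate and was higher in 11 of 11 libraries, had an adjusted p of 0.165 by the same exact test. Its adjusted values thus say little. The tests also differ in weighting and in the genes adjusted over, and the cause of their difference was not tested.

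**Figure D4:**
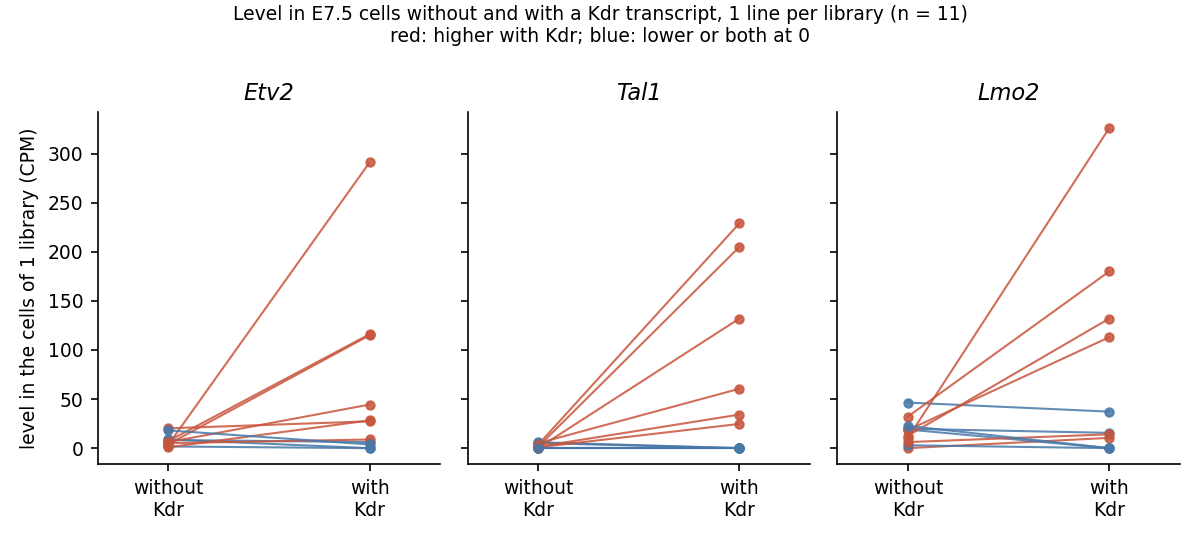
Level (CPM, linear axis) of Etv2, Tal1 and Lmo2 in the cells of each E7.5 library without and with a Kdr transcript, 1 line per library (n = 11). Red lines rise with Kdr, steepest in replicates 4 and 2, and blue lines, 4 for Etv2 and 5 each for Tal1 and Lmo2, fall or stay at 0.

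Across the 6560 genes that passed the ordinary filter on low counts, 277 were called between cells with and without Kdr (4.22%), 124 higher (1.89%) and 153 lower (2.33%), with a median log2 fold change near 0 at -0.00151. Genes of the receptor's own pathway were examined first. In a list of VEGF ligands, receptors and signal carriers, 2 of 7 tested genes were higher and 1 lower. The 2 higher genes were neuropilins, co-receptors of Kdr: Nrp1 at 112 ± 69.0 against 25.5 ± 14 CPM (SD, n = 11, log2 fold change 2.12, SE 0.246, adjusted p = 1.413e-05, edgeR) and Nrp2 at 87.8 against 37.6 CPM, higher in 11 of 11 libraries (1.13, SE 0.181, adjusted p = 0.000558, edgeR). Shb, an adaptor of the receptor, was lower by a log2 fold change of -1.38 (adjusted p = 0.00225, edgeR). The ligand gene Vegfa (0.08), the effector Plcg1 (-0.10), Vegfb (-0.01) and the receptor Flt1 (0.96, adjusted p = 0.365) did not pass.

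Genes of lateral and extraembryonic mesoderm were, of the lists tested, the group most often higher in cells with Kdr, with 11 of 13 tested genes higher, 0 lower and a median of 1.51. Gata4, a heart and endoderm factor, was at 70.3 against 19.8 CPM (log2 fold change 1.75, SE 0.217, adjusted p = 3.901e-05, edgeR). The growth factor gene Bmp4 was at 163 against 44.4 CPM (1.89, SE 0.302, adjusted p = 0.000558, edgeR). Gata6 (1.53), Foxf1 (1.89), Tbx20 (1.82) and the BMP pseudoreceptor gene Bambi (1.42) also rose, whereas Pmp22 (0.94, adjusted p = 0.116) and Ahnak (0.21) did not pass.

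Epiblast and ectoderm genes were lower with Kdr, with 9 of 11 called lower, 0 higher and a median of -1.15. Sox2 was at 27.6 against 118 CPM (log2 fold change -2.03, SE 0.210, adjusted p = 7.03e-06, edgeR). Utf1 (-1.88), Pou3f1 (-1.72), Cdh1 (-1.20), Cldn6 (-1.18) and Pou5f1 (-0.82) also fell. Of nascent and paraxial mesoderm genes, 2 of 13 were higher, Mesp1 (0.99, adjusted p = 0.0215, edgeR) and Pdgfra (0.76, adjusted p = 0.0278, edgeR), and Aldh1a2, which makes retinoic acid, was lower (-1.09, adjusted p = 0.0225, edgeR).

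Endothelial and blood genes were mostly too low for that filter, which 3 of 25 endothelial and 0 of 20 blood genes passed. Egfl7, a secreted endothelial factor, was higher (0.89, adjusted p = 0.0479, edgeR), and Aplnr, the apelin receptor gene, was not called (0.20). Over genes with at least 100 transcripts, 8 endothelial and 7 blood genes entered, with 2 and 4 called higher and 0 lower. They were Ets1 at 32.8 against 11.3 CPM (1.62, SE 0.256, adjusted p = 0.000293, edgeR), higher in 10 of 11 libraries, Egfl7, Gata2 at 46.0 ± 51.2 against 7.16 CPM (2.57, SE 0.471, adjusted p = 0.00141, edgeR), Cbfa2t3 (2.15), Runx1 (2.49) and Gata1 (2.14). A low gene that enters through the cells in which it is high is more likely to be called, so these counts are a description.

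Partners of the Tal1 and Lmo2 complex were a mixed group. In the ordinary fit 6 of 14 were tested and 0 called, with a median of 0.0938, and Ldb1, the scaffold of the complex, was at 0.28 (adjusted p = 0.25, edgeR). Over genes with at least 100 transcripts 13 entered, of which Gata2, Cbfa2t3, Runx1 and Gata1 were higher and Ldb2 lower (-1.34, adjusted p = 0.0283, edgeR). Endoderm genes, of which 3 were tested, had Apoe higher (0.70) and Trh lower (-2.05). Among called genes with at least 20 CPM, the largest log2 fold changes were those of Nrp1, Prdm6 (2.11), Zfpm1 (1.92), Stard8 (1.91) and Bmp4, and the smallest those of Slc7a3 (-2.69), Trh, Sox2, Eras (-1.92) and Utf1. Zfpm1 encodes the GATA cofactor FOG1.

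Markers of other cell types moved with the gate. The 12 extraembryonic and lateral mesoderm markers summed to 137 to 2150 CPM in cells with Kdr and 27.8 to 851 CPM without, higher in 11 of 11 libraries, and the 20 blood and endothelial markers to 52.4 to 744 against 38 to 89.8 CPM, higher in 9. The 9 epiblast markers summed to 861 to 2800 against 1620 to 4680 CPM, higher in 0. The 9 visceral endoderm markers reached 4130 CPM with Kdr in 1 library, against at most 389 CPM without, and were higher in 8. No E7.5 cluster took the name of that cell type, and leaving out the 6 cells of the extraembryonic ectoderm-like class gave 274 called genes. The comparison was also made within mesoderm classes alone. These were the paraxial, the extraembryonic and lateral, and the blood and endothelial progenitor-like classes, without the streak-like one. There 7 genes were called in 8 libraries, with Nrp1 higher (1.38) and Aldh1a2, Cited1, F11r, Hoxb1, Tbx6 and Tceal8 lower. Of the lateral mesoderm and epiblast lists 0 genes were called. Without the blood and endothelial progenitor-like cells 197 genes were called, 178 of them shared with the 277, and the lateral mesoderm list again had 11 higher. With the gate set after thinning, 101 were called in 4 libraries.

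**Figure D5:**
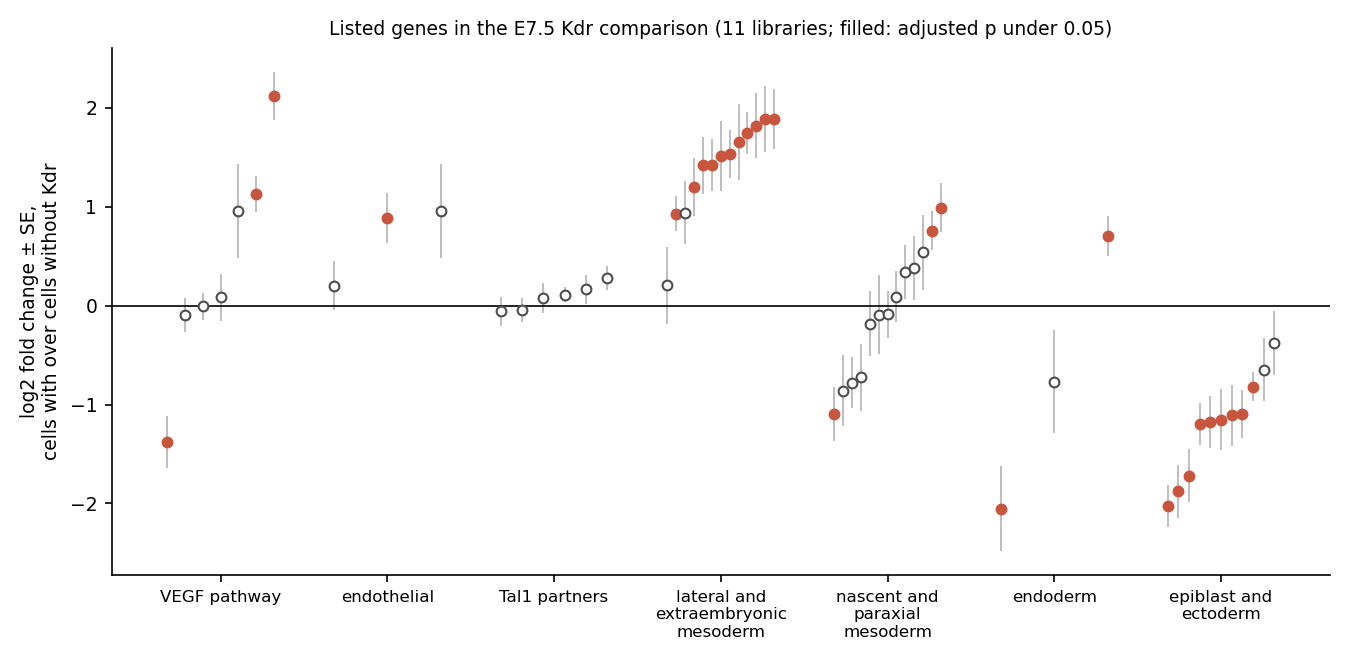
Log2 fold change ± SE of listed genes between E7.5 cells with and without Kdr (11 libraries), grouped by list, filled where the adjusted p was under 0.05. Lateral and extraembryonic mesoderm genes lie above 0 and epiblast genes below it, with medians of 1.51 and -1.15, and Nrp1 and Nrp2 stand above the other VEGF pathway genes.

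The reverse comparison split the 429 E7.5 cells by the 3 regulators. Kdr was found in 58 of 171 cells with Etv2, Tal1 or Lmo2 (33.9%) and in 43 of 258 with none (16.7%), at 56.4 ± 61.1 and 29.9 ± 36.1 CPM (SD, n = 11), higher in 6 of 11 libraries. Its log2 fold change over genes with at least 100 transcripts was 1.30 (SE 0.52, adjusted p = 0.867, edgeR), where 0.0324% of genes were called, all higher and all regulators of the gate, and the exact sign-flip permutation test over libraries gave a mean difference of 0.47 (exact p = 0.550, adjusted p = 1). Of 6854 genes in the ordinary fit 0 were called (0%) by edgeR, with 384 at an unadjusted p under 0.05, and 0 by DESeq2. Cells with a regulator were deeper in 11 of 11 libraries, by 1.18 to 6.64 times.

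Kdr passed in some narrower settings and not in others. With a gate of 2 transcripts its log2 fold change was 2.00 (adjusted p = 0.588, edgeR). With the gate set after thinning, which left 4 of 11 libraries, Kdr had a log2 fold change of 3.54 (adjusted p = 7.025e-05, edgeR) and 90 genes were called. Within mesoderm classes, in 7 libraries, 5 genes were called, Kdr (2.48, adjusted p = 0.0218, edgeR), F2r, Fgf3 and Igfbp4 higher and Slc2a1 lower. These classes include the 16 blood and endothelial progenitor-like cells, which all held Tal1 and had 288 of the 719 Kdr transcripts of the stage. The part of that class in the Kdr call was not tested.

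Among cells with Kdr, those with a regulator were set against those without, 57 against 32 cells in 8 libraries. Of 3653 genes 0 were called (0%) by edgeR, with 120 at an unadjusted p under 0.05, and 0 by DESeq2. Over 5781 genes with at least 100 transcripts, 6 were called (0.104%), 5 of them higher (0.0865%), and 3 were the regulators that define the split. The other 3 were Gata2, at 77.8 ± 74.5 against 3.52 CPM and higher in 8 of 8 libraries (log2 fold change 3.72, SE 0.467, adjusted p = 0.000222, edgeR), Rnd2, higher (2.67, adjusted p = 0.00326, edgeR), and Irx5, a homeobox gene, at 23.7 against 117 CPM (-2.37, adjusted p = 0.00502, edgeR). Gata2 failed the ordinary filter and entered through the cells in which it is high, so its value is a description. Rnd2 and Irx5 were not called in the ordinary fit either. The filter that called them was added after seeing the data, so their values are a description too. Gata2 and Rnd2 were also among the leading genes of the blood and endothelial progenitor-like class. Rnd2 and Irx5 were named after their values were seen.

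At E6.75 only replicates 2_13 and 2_14 had at least 3 cells with Kdr, 7 each, so the comparison was not made there alone. In these 2 libraries extraembryonic and lateral mesoderm markers summed to 627 and 689 CPM in cells with Kdr against 73.1 to 79.9 CPM without, and streak markers to between 1470 and 2850 against 767 to 801 CPM. Blood and endothelial markers summed to 55.9 to 59.3 CPM with Kdr and 58.2 to 60.9 CPM without. Extraembryonic ectoderm markers summed to 22 and 465 CPM with Kdr against 39.4 to 78.7 CPM without. Bmp4, which is among the extraembryonic and lateral mesoderm markers, was also a leading gene of the extraembryonic ectoderm-like class of this stage. The part of such cells in the mesoderm sum was not tested. The difference between the stages was tested as an interaction over the 13 libraries. Of 9010 genes 24 were called (0.266%), 1 higher at E7.5 (0.0111%), Podxl (1.90), and 23 lower (0.255%).

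Among the listed genes, only some of nascent and paraxial mesoderm were called, going with Kdr less at E7.5 than at E6.75. The rest of the 23 genes called lower were in none of the lists. Mesp1, a factor of early cardiac mesoderm, had an interaction of -2.09 (adjusted p = 0.0417, edgeR), the receptor gene Pdgfra -2.77 (adjusted p = 0.00321, edgeR), Snai1, a regulator of the epithelial to mesenchymal transition, -2.31 (adjusted p = 0.0417, edgeR) and the Notch ligand gene Dll3 -2.69 (adjusted p = 0.0408, edgeR). These were the 4 of 16 tested genes of nascent and paraxial mesoderm that passed. The result rests on 2 libraries of E6.75: without replicate 2_13, 1 gene was called.

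The same lists were counted in the stage comparison, where 20% of all genes tested were higher and 18.8% lower. Of the VEGF genes, 5 of 7 tested were higher at E7.5 and 1 lower, with Nrp1 at 51.9 against 2.31 CPM (log2 fold change 4.36, SE 0.307, adjusted p = 3.285e-09, edgeR), Nrp2 (2.14), Vegfa (1.32), Flt1 (0.79) and Plcg1 (0.49) higher and Shb lower (-0.36). Of blood genes, 3 of 5 tested were higher, Gata2 (3.97, SE 0.601, adjusted p = 2.534e-05, edgeR), Gata1 (3.19) and Cbfa2t3 (2.30), and Myb was lower (-0.98). Of endothelial genes, 4 of 8 were higher, among them Aplnr (4.66, SE 0.505, adjusted p = 4.725e-07, edgeR), Mef2c (2.99) and Ets1 (2.32). Of partners of the Tal1 complex, 5 of 12 were higher and 3, Ldb2 (-0.85), Ssbp2 (-0.57) and Ssbp3 (-0.49), lower, and Ldb1 was at 0.005 (adjusted p = 0.985, edgeR).

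Mesoderm lists as a whole were higher at E7.5, with 13 of 14 lateral and extraembryonic and 12 of 16 nascent and paraxial genes called, and 9 of 11 epiblast genes were lower. The sizes of these changes, with medians of 2.65, 2.5 and -1.08 against 0.0279 over all genes tested, stand beside 3.89, 3.54 and 3.01 for Kdr, Lmo2 and Tal1. Among called genes with at least 20 CPM, the largest log2 fold changes included Aldh1a2 (8.10), Foxc2 (7.06), Hoxb1 (6.92) and Foxf1 (6.31), and the smallest were Afp (-6.76), Cubn (-4.79), Apob (-4.44), Ttr (-4.41) and Apoa1 (-4.16), genes of visceral endoderm.

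Finally, the genes most like each of the 4 over single cells were taken from Pearson correlations of log-scaled counts across the 429 E7.5 cells, centred within libraries, among 13788 genes. Cells share their library and depth, and the values are a description. For Kdr the 5 highest were Etv2 (r = 0.621), Tal1 (0.547), Sox7 (0.478), Gm37474 (0.478) and Fli1 (0.473). For Etv2 they were Kdr (0.621), Tal1 (0.593), Gm37474 (0.458), Wnk4 (0.441) and Rasip1 (0.436). Sox7 is a transcription factor of endothelium and Rasip1 acts in vessel formation.

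For Tal1 the 5 highest were Gata2 (0.767), Lmo2 (0.729), Gfi1b (0.713), Gypc (0.712) and Cbfa2t3 (0.698), and for Lmo2 they were Tal1 (0.729), Gfi1b (0.631), Gata2 (0.607), Wnk4 (0.575) and Gata1 (0.573). Gfi1b and Gata1 are factors of red cell formation, Gypc is a red cell membrane gene and Cbfa2t3 encodes a corepressor of the Tal1 complex. Kdr and Lmo2 were at 0.392. By rank correlation the order changed: Kdr with Etv2 was at 0.355, Tal1 with Lmo2 at 0.282, and of the 4 genes only Etv2 then had another of them among its 5 highest. The correlations fell when every cell was thinned to 2000 transcripts, to 0.421 for Kdr and Etv2, 0.340 for Tal1 and Lmo2 and 0.109 for Kdr and Lmo2. Within single libraries the first ranged from -0.119 to 0.894 and the second from -0.0901 to 0.977.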

How the data were processed

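The authors deposited expected counts for each gene in each cell barcode. Each nonzero value was what k observed molecular identifiers give when corrected for collisions among 4096 possible sequences, to within 4.09e-12, and was not scaled for depth. Per the submitters' processing notes, bcl2fastq 2.17.1.14 and BWA 0.6.2-r126 were used. The genome build, annotation, counting program and use of strand are not given in the sources used here. Of 23093 features, 74 spike-ins and 22 mitochondrial genes were left out. Each file had 192 barcode columns, of which 96 were in use, and cells with at least 2000 nuclear transcripts in libraries with at least 10 such cells were kept. Well barcodes recur between libraries: 56 of 153 library pairs use the same 96. No library pair agreed within sampling noise. No doublet caller was run on these picked or sorted cells.

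Counts were rounded and summed per library, or per library and gate, and tested with edgeR 4.0.16 (quasi-likelihood, TMM, filterByExpr, Benjamini-Hochberg over all genes tested, threshold 0.05) in R 4.3.3 with limma 3.58.1. DESeq2 1.42.0 was an alternative. Gates needed at least 3 cells on each side, or 2 within cells with Kdr. Because the ordinary filter removed Etv2, Tal1 and Lmo2 from the gate comparisons, a filter of at least 100 transcripts over all libraries and an exact sign-flip test over libraries were added after seeing the data. Shares were compared by exact permutation, and co-detection by exact sign-flips with 0.5 cells added. Clusters came from scanpy 1.11.5 (Leiden resolution 1, igraph 0.11.9) with the 4 genes left out, using scipy 1.17.1, numpy 2.4.6 and Python 3.11.15. The scripts were tested on simulated data.

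The genes, marker lists and gene lists were chosen with earlier results of these data known. Genes were named as the 4 themselves, up to 6 tested genes of a list with the smallest p, the 5 most similar genes found in at least 10 cells, and the 5 called genes with the largest and the 5 with the smallest change among those with at least 20 CPM and the same sign in at least 80% of libraries. A gene that this rule names between the stages is not reported here. The files name 24 of the 25 endothelial genes listed.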

Additional observations from a re-analysis of the deposited data

Results flagged for a closer look

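Etv2 in E6.75 replicate 2_14, at 45.8 CPM, stood apart from the other 5 libraries of its stage, which lay between 3.08 and 10.4 CPM. Of its 236 Etv2 transcripts, 75.4% were in the streak-like cell that also held 28 Kdr and 26 Tal1 transcripts. With 17 groups examined in this way, chance alone marks about 1 in 20.

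In the comparison of cells with and without Kdr, 4 listed mesoderm genes differed between the stages by the test of the difference itself: Dll3 by -2.69, Mesp1 by -2.09, Pdgfra by -2.77 and Snai1 by -2.31 on the log2 scale, E7.5 minus E6.75. Only 2 libraries gave the E6.75 side, and when each library was left out in turn the highest adjusted p reached 0.649 for Dll3, 0.997 for Mesp1, 0.185 for Pdgfra and 0.918 for Snai1 (edgeR).

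The 723 used E7.5 barcodes with fewer than 2000 transcripts, left out of all comparisons, held 261697 transcripts. Among them were 8 of Kdr (30.6 CPM), 10 of Etv2 (38.2 CPM), 6 of Lmo2 (22.9 CPM) and 3 of Tal1 (11.5 CPM). A count of 3 there is 11.5 CPM, so Kdr, Etv2 and Lmo2 lay above that limit and Tal1 at it.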

How the results depend on the processing

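The stage calls of Kdr, Lmo2 and Tal1 kept their direction and still passed in the alternatives in which they could be tested. Thinning cells to 2000 transcripts left the 4 genes too low to test, took the stage calls from 3879 to 602, and without E7.5 replicate 1 or 2 Tal1 was too low to test. Etv2 between stages was 1.53 without the single cell and 0.436 to 1.70 with 1 library left out at a time. Calls in the shares of cells, 272, became 135 at 1000 transcripts, 431 at 5000, 908 unthinned and 0 with the E6.75 libraries whose number begins with 2, and 146 to 244 with 1 library left out. The Kdr share difference was 22 points unthinned. That of Etv2, -0.0637 points, turned to 0.409 at 1000 transcripts, 2.38 at 5000 and 0.230 for 2 or more transcripts, and ranged from -0.547 to 0.731 with 1 library left out.

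Both sides of each gate came from 1 library, so the library was the block in the pairing; without the replicate block the Kdr comparison called 147 genes in place of 277. It called 101 with the gate set after thinning, 602 over every gene with a transcript, 397 over genes with at least 100 transcripts, 7 within mesoderm classes and 197 to 280 with 1 library left out. Over every gene the spread was underestimated, since Gm10800 had an SE of 0.0283 there and 0.136 in the ordinary fit, and its p-values are not used. Lmo2 was 2.24 with the gate after thinning (adjusted p = 0.123, edgeR), 0.773 by sign-flips and 1.25 to 2.18 with 1 library left out. It did not pass without replicate 2 (1.51), 4 (1.25), 6 (1.63) or 8 (1.605). Where Lmo2 entered the ordinary filter it was 1.593 without replicate 8, which did not pass, and 1.88 without 9. Etv2 and Tal1 were 1.28 and 1.82 by sign-flips. Pdgfra turned to -0.485 within mesoderm classes. The regulator comparison, 0 calls, gave 1 with a gate of 2 transcripts, 90 after thinning, 74 over every gene, 3 at 100 transcripts, 1 without very deep cells, 5 within mesoderm and 0 to 2 with 1 library left out, with Kdr at 3.54, 1.31 and 2.48 after thinning, over every gene and within mesoderm. Among cells with Kdr the 0 calls became 5 with a gate of 2 transcripts, 35 over every gene, 6 at 100 transcripts and 0 to 1 with 1 library left out. The difference between stages, 24 calls, gave 35 with a gate of 2 transcripts and 1 to 31 with 1 library left out. The cause of these changes was not tested.

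Some co-detection ratios changed sign. At E6.75 they were Kdr with Etv2 (-0.342 with 0.1 cells added, -0.152 to 0.286 with 1 library left out), Kdr with Tal1 (0.0242 with 1 cell added, -0.326 to 0.201), Etv2 with Tal1 (-0.0523 with 0.1 added, -0.000534 to 0.358), Etv2 with Lmo2 (-0.0710 with 0.1 added, -0.149 for 2 or more transcripts) and Tal1 with Lmo2 (-0.109 without very deep cells). At E7.5 they were Kdr with Lmo2 (-0.355 with 0.1 added, -0.245 without the blood class, -0.0873 to 0.132) and Tal1 with Lmo2 (-0.259 without the blood class, against 0.562). Kdr in extraembryonic and lateral mesoderm-like cells averaged 152 CPM over libraries at a finer clustering, against 85.5. Tal1 with Lmo2 correlated at 0.282 by rank and 0.340 after thinning, against 0.729. Not run, for want of libraries, were the Kdr comparison within E6.75 and, with gates set after thinning, the split of cells with Kdr and the difference between stages. Depth limits the low genes most, with 15 to 71 cells per E7.5 library.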
